A study of Drosophila melanogaster with 36 samples.

Results

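Distal and proximal cells of the haltere imaginal disc were compared by RNA-seq, with 2 libraries of sorted nub cells set against 2 libraries of sorted tsh cells. These 4 libraries were taken by their labels from a series of 36 samples on Drosophila melanogaster discs, 8 of which are RNA-seq libraries. The haltere disc is the larval epithelial sac that gives rise to the haltere, the small balancing organ behind the wing, and to the dorsal body wall around it. The haltere nub group carried the genotype yw;nub.gal4;uas-kash.GFP and the haltere tsh group the genotype yw;tsh.gal4;uas-kash.GFP. In both, a Gal4 driver switched on a GFP held at the nuclear envelope, and the marked cells were sorted for total RNA from discs of wandering larvae of instar 3 raised at 25 °C. The wing nub and wing tsh groups, of the same 2 genotypes and also with 2 libraries each, entered the fit to give a shared estimate of spread and to test the domain difference of one disc against that of the other. Alleles of y and w (yellow and white) were thus in the background of all 4 groups. Each domain was marked by its own driver line, and effects of line and of domain cannot be told apart. Whether the replicates are separate batches of larvae is not stated in the labels, and p-values therefore measure the spread between these libraries, which may be technical.

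As background, dorsal appendages are patterned along their proximal to distal axis. The wing and haltere pouch is marked by the POU factor gene nub and depends on the selector vg with its DNA-binding partner sd, whereas tsh, its paralog tio and hth act in the body wall and hinge. Signals of the Wnt, Notch, BMP and EGF receptor pathways pattern the pouch, and the Hox gene Ubx gives the haltere its identity in place of the wing.

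The library totals were 96525031 and 92342738 counts in haltere nub cells and 15110163 and 17556152 counts in haltere tsh cells, a ratio of the means of 5.78. The other 4 RNA libraries held 15583085 to 17705451 counts, so depth or a separate sequencing run cannot be told apart from the haltere nub group. A single count was worth 0.0104 and 0.0108 CPM in haltere nub libraries and 0.0662 and 0.0570 CPM in haltere tsh libraries, where CPM is a count scaled to the size of its library, before the TMM scaling used for all other values. Counting noise alone did not account for the spread of replicates, as the chi-square per gene was 31.4 in the haltere nub pair and 9.0 in the haltere tsh pair. Of the other libraries, wing tsh replicate 1 stood apart, with 5111 genes at 1 to 5 CPM against 1805 to 2315 in the other 7. It enters the haltere difference only through the shared spread, and it enters every value set against the wing.

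The driver genes followed the labels. Levels of nub (Release 6 assembly, 2L, 12587625 to 12628135) were 1036 and 1041 CPM in haltere nub and 10.5 and 10.3 CPM in haltere tsh libraries. Levels of tsh (2L, 21828593 to 21837011), a zinc finger gene, were 29.5 and 23.4 CPM in haltere nub and 898 and 839 CPM in haltere tsh libraries. No library of either group overlapped the other group in these 2 genes, as in 69% of all genes tested, and the log2 fold changes of haltere nub over haltere tsh were 6.64 ± 0.11 (SE) for nub and -5.03 ± 0.20 for tsh. A lack of overlap was thus common, and by itself it says little about a single gene, here or below.

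Over the whole transcriptome, 2790 of 11198 genes tested (24.9%) differed between haltere nub and haltere tsh cells at an adjusted p under 0.05 (two-sided quasi-likelihood test of edgeR, adjusted by Benjamini-Hochberg). Of these, 1115 (9.96% of genes tested) were higher and 1675 (15% of genes tested) were lower in nub cells. Changes of at least 2-fold were found in 476 higher genes (4.25%) and 436 lower genes (3.89%), so that most calls were of small changes. The median log2 fold change of all genes tested was -0.01. When the haltere nub counts were thinned at random to the mean total of the haltere tsh libraries, 1024 genes were called higher and 1592 lower. Among these were 1005 of the 1115 higher genes (90.1%) and 1517 of the 1675 lower genes (90.6%), and 0 genes were called in the opposite direction. A new fit of only the genes with a mean of at least 5 CPM in the higher haltere group, scaled and adjusted anew, called 1409 genes higher and 1581 lower. Without haltere nub replicate 1 or 2 or haltere tsh replicate 1, the number of genes called in either direction was 1515, 1472 and 1456, and without wing tsh replicate 1 or 2 it was 3737 and 3705. In such bulk measurements, fewer cells of a type and less RNA per cell cannot be told apart.

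**Figure D1:**
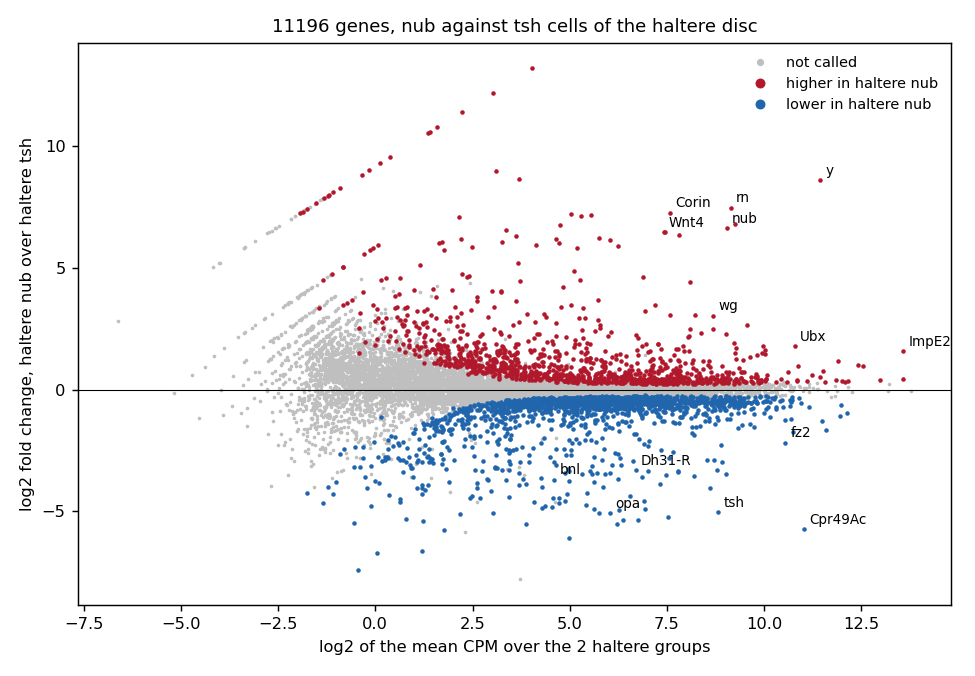
Log2 fold change of haltere nub over haltere tsh cells (vertical axis) against the log2 of the mean CPM over the 2 haltere groups (horizontal axis), with 1 point per gene tested that has a count in these libraries. The 1115 genes called higher and the 1675 called lower in haltere nub cells are coloured, and the rows of points at the upper left are genes with 0 or few counts in the shallower haltere tsh libraries.

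The genes of largest difference were of mixed function. The pigmentation gene y (X, 356509 to 361245) stood at 5221 and 5877 CPM in haltere nub libraries and 15.5 and 13.3 CPM in haltere tsh libraries, and the zinc finger gene rn, which acts in the pouch, at 1077 and 1160.0 CPM in haltere nub libraries and 4.81 and 7.71 CPM in haltere tsh libraries. For the serine protease gene Corin the levels were 336 and 428 CPM in haltere nub and 2.96 and 2.06 CPM in haltere tsh libraries. The GTPase activating protein gene RacGAP84C had 101 and 84.1 CPM in haltere nub against 0.132 and 1.08 CPM in haltere tsh libraries. Log2 fold changes were 8.59 ± 0.20 for y, 7.47 ± 0.18 for rn, 7.26 ± 0.90 for Corin and 7.17 ± 0.38 for RacGAP84C. All groups carried an allele of y, and effects of driver line and of domain cannot be told apart, for y or any other gene here. In the wing disc, the yellow family with w, y among them, summed to 7305 and 8199 CPM in wing nub and 1024 and 1139 CPM in wing tsh libraries. The genes of largest change were taken from those without overlap of replicates. The cytochrome P450 gene Cyp6a17 had 0 counts in haltere tsh and 9.32 and 9.58 CPM in haltere nub libraries, at least 103-fold higher when the 2 haltere tsh libraries together are given 3 counts as a floor. In the wing disc Cyp6a17 was at 13.3 and 16.6 CPM in wing nub and 0 and 0 CPM in wing tsh libraries. It thus followed the driver line in both discs, and line and domain cannot be told apart. The gene meng, with 1 count in haltere tsh and 15.4 and 19 CPM in haltere nub libraries, had a ratio of 560 (95% counting interval 100.5 to 22137), and TTLL3A, a tubulin ligase family gene with 2 counts in haltere tsh and 4.84 and 12.9 CPM in haltere nub libraries, a ratio of 143 (39.4 to 1179). Of the 15 genes with the largest increases, 6 are known by number only, 5 of them at 0 counts in haltere tsh cells. RacGAP84C and lncRNA:CR44333, which had 0 counts in haltere tsh cells (at least 355-fold higher in haltere nub cells), lie within the span of rn (3R, 7272617 to 7309629), and as the use of strand in counting is not given in the sources used here, reads of these 3 genes may be shared between them. The call of meng was lost without either haltere nub replicate or haltere tsh replicate 1 (adjusted p of 0.0513 to 0.0677 in edgeR's quasi-likelihood test). TTLL3A lost its call without any 1 of the 4 haltere or the 2 wing nub libraries (0.0588 to 0.165), and also with a replicate block (0.0541) and with no filter on low counts (0.136).

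On the lower side, the cuticle protein gene Cpr49Ac was at 99.9 and 55.7 CPM in haltere nub and 4351 and 3862 CPM in haltere tsh libraries. The aquaporin gene Drip, which encodes a water channel, stood at 3.85 and 2.33 CPM in haltere nub libraries and 106 and 102 CPM in haltere tsh libraries. The gene hui had 4.09 and 2.34 CPM in haltere nub against 158 and 134 CPM in haltere tsh libraries, and the cuticle protein gene Cpr65Ec had 6.07 and 3.68 CPM in haltere nub against 150.1 and 147 CPM in haltere tsh libraries. The log2 fold changes were -5.72 ± 0.52 for Cpr49Ac, -5.07 ± 0.23 for Drip, -5.50 ± 0.24 for hui and -4.93 ± 0.28 for Cpr65Ec. Of the 15 genes with the largest decreases, 7 are known by number only, led by CG13053 (-6.07 ± 0.22), and 4 are transcription factor genes described below (tio, opa, tsh and drm).

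Regulators of the distal appendage had the largest share of higher genes (78.9%) of the 40 gene lists examined, beside 9.96% of all genes tested. This list holds nub, whose driver marked the sorted cells. The lists were also chosen with earlier results of these data known, so the rank describes the list and tests nothing. All 19 members were tested, 15 were higher and 4 lower in haltere nub cells, and the median log2 fold change was 1.59 against -0.01 for all genes tested. Pouch genes at low level in tsh cells led the list. The gene peg stood at 1163 and 1252 CPM in haltere nub libraries and 10.1 and 11.4 CPM in haltere tsh libraries. The homeobox gene dve had 340.4 and 345 CPM in haltere nub and 3.62 and 4.0 CPM in haltere tsh libraries. For nab, which encodes a transcriptional cofactor, levels were 458 and 425 CPM in haltere nub and 5.47 and 5.25 CPM in haltere tsh libraries. The groups were far apart in all 3 genes, at log2 fold changes of 6.80 ± 0.15, 6.49 ± 0.15 and 6.37 ± 0.19. The nub paralog pdm2, which lies beside nub on 2L, reached 137 and 123 CPM in haltere nub against 2.04 and 1.66 CPM in haltere tsh libraries (6.14 ± 0.43), and the homeobox gene Optix 51.9 and 54.9 CPM in haltere nub against 0.593 and 0.40 CPM in haltere tsh libraries (6.76 ± 0.78).

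Selector and broad pouch genes differed less. The selector vg was at 200.1 and 197 CPM in haltere nub and 125 and 106 CPM in haltere tsh libraries, and sd at 929.7 and 975 CPM in haltere nub and 647 and 672 CPM in haltere tsh libraries, with log2 fold changes of 0.78 ± 0.09 and 0.53 ± 0.09. The T-box gene bi (1.61), the homeobox gene Dll (1.59), the intervein factor gene bs (1.63), the LIM-only gene Bx (1.47), and the zinc finger genes elB (1.21) and noc (0.91) were also higher. The call of noc was lost in a fit of the 4 haltere libraries alone (adjusted p of 0.104). The antisense RNA asRNA:bsAS, which overlaps bs, was higher as well (2.06 ± 0.11), and reads of these 2 genes cannot be told apart here since the use of strand is not given in the sources used here.

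The 4 lower members went against the name of the list. The zinc finger gene salr, which with salm patterns the veins of the wing pouch, stood at 58.2 and 59.8 CPM in haltere nub libraries and 341 and 354 CPM in haltere tsh libraries. Its neighbour salm had 225 and 241 CPM in haltere nub and 626 and 604 CPM in haltere tsh libraries. The growth regulator gene fj, which encodes a Golgi kinase, was at 219 and 229 CPM in haltere nub and 594 and 504 CPM in haltere tsh libraries, and ab, a zinc finger gene, at 376 and 375 CPM in haltere nub and 611 and 649.9 CPM in haltere tsh libraries. In each of these 4 genes both haltere tsh libraries lay above both haltere nub libraries, with log2 fold changes of -2.56 ± 0.09, -1.40 ± 0.09, -1.29 ± 0.10 and -0.75 ± 0.08. In the wing disc, the same difference of nub over tsh cells was 0.37 ± 0.09 for salm and 1.11 ± 0.10 for fj, both higher, while salr was not called (0.15) and ab was lower (-0.55).

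**Figure D2:**
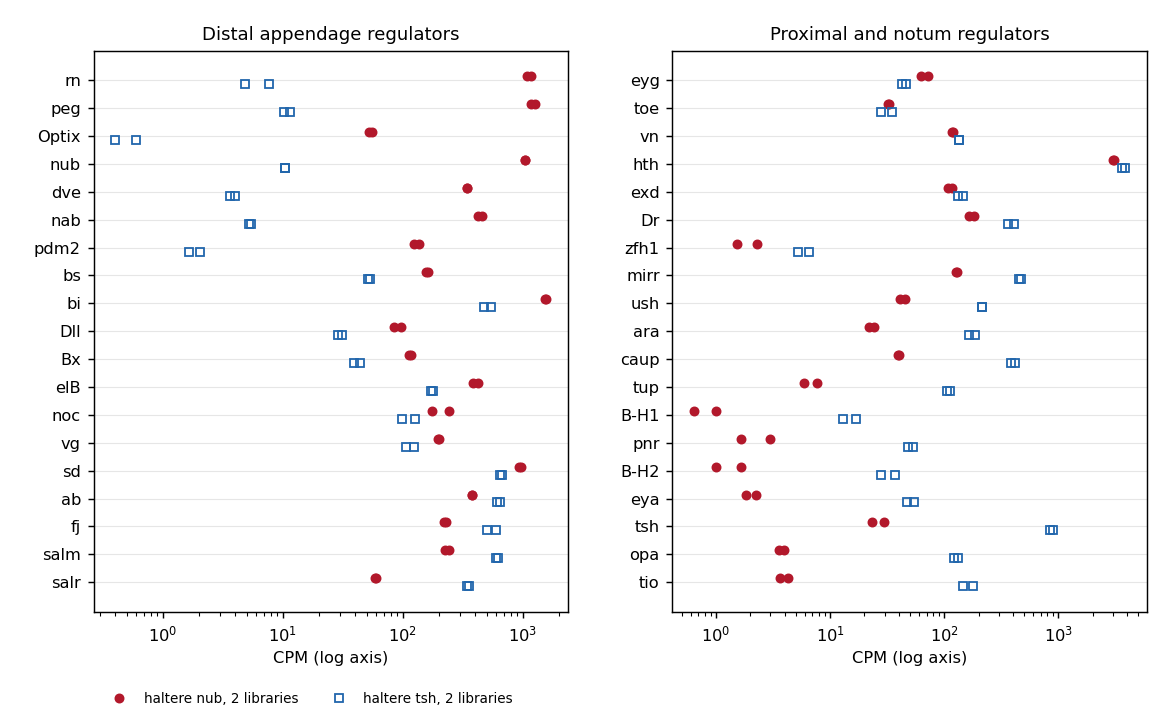
CPM in each haltere library (horizontal log axis) of the 19 distal appendage regulators (left) and the 19 proximal and notum regulators (right), sorted by fold change, with haltere nub libraries as filled circles above haltere tsh libraries as open squares. The 4 lowest rows on the left, ab, fj, salm and salr, have haltere tsh values above haltere nub values, and on the right only eyg is called higher in haltere nub cells.

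Proximal and notum regulators showed the opposite picture, with 15 of 19 members lower, 1 higher and a median log2 fold change of -2.92. The shares were 78.9% lower and 5.26% higher, beside 15% and 9.96% of all genes tested. This list holds tsh, whose driver marked the cells it is compared in. The tsh paralog tio stood at 4.26 and 3.63 CPM in haltere nub libraries and 179 and 145 CPM in haltere tsh libraries. The pair-rule gene opa, a zinc finger gene, had 3.95 and 3.58 CPM in haltere nub and 132 and 122 CPM in haltere tsh libraries. The notum genes pnr, a GATA factor gene, and tup, a LIM homeobox gene, were also low in nub cells. Levels of pnr were 2.99 and 1.67 CPM in haltere nub and 53.2 and 48.1 CPM in haltere tsh libraries, and those of tup 7.71 and 5.93 CPM in haltere nub and 113 and 106 CPM in haltere tsh libraries. The replicates of the groups did not overlap in any of these, as in 69% of all genes tested, with log2 fold changes of -5.35 ± 0.15, -5.08 ± 0.12, -4.43 ± 0.29 and -4.0 ± 0.14. The pnr cofactor gene ush was lower too (-2.31 ± 0.11), as were the retinal determination gene eya (-4.64 ± 0.15) and the neighbouring Bar homeobox genes B-H1 (-4.17 ± 0.25) and B-H2 (-4.62 ± 0.26).

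The 3 Iroquois homeobox genes, which act in the notum and hinge, were all lower. Levels of caup were 40.0 and 39.5 CPM in haltere nub and 419 and 387 CPM in haltere tsh libraries, those of ara 22 and 24.1 CPM in haltere nub and 185 and 165 CPM in haltere tsh libraries, and those of mirr 127 and 129 CPM in haltere nub and 471 and 456 CPM in haltere tsh libraries. The log2 fold changes of -3.34 ± 0.09, -2.92 ± 0.10 and -1.86 ± 0.08 were all larger than the spread between replicates. Hth and Exd, the protein pair that works as cofactors of Hox proteins, are encoded by hth and exd. The gene hth stood at 3028 and 3067 CPM in haltere nub libraries and 3594 and 3831 CPM in haltere tsh libraries, which did not pass the test (-0.28 ± 0.10, adjusted p = 0.0593 in edgeR's quasi-likelihood test). It was called lower by DESeq2, with a floor of 5 CPM, in a fit of the 4 haltere libraries alone and without either wing tsh replicate (adjusted p of 0.00195 to 0.0259), and its value was -0.58 (adjusted p of 0.00114) when the trend of fold change on gene span was removed. The lower call of exd (-0.30 ± 0.10, adjusted p = 0.0436) was lost without any 1 of the 4 haltere libraries (adjusted p of 0.0898 to 0.252) and without either wing nub library, and under 7 of the other settings (0.0516 to 0.0905). The neuregulin-like ligand gene vn (-0.19 ± 0.08) and the Pax gene toe were not called, though vn was lower with the trend on gene span removed (-0.37, adjusted p of 0.00543), in the haltere libraries alone (0.0311) and without either wing tsh replicate (0.0452 and 0.0454). The Pax gene eyg, which lies next to toe, was the 1 member called higher, with 62.3 and 72.7 CPM in haltere nub and 46.1 and 42.4 CPM in haltere tsh libraries (0.61 ± 0.11).

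Genes of the odd-skipped family, zinc finger factors of segment and leg joint formation, were lower in 3 of 4 cases. Among all genes tested, 15% were lower. The neighbours drm (-4.90 ± 0.17), sob (-3.34 ± 0.19) and odd (-4.82 ± 0.22) lie within 67.5 kb of each other on 2L, and bowl was not called (0.24 ± 0.09), although it was called higher by DESeq2, with a floor of 1 or 5 CPM, in the haltere libraries alone and without either wing tsh replicate (adjusted p of 0.00624 to 0.011). For drm the levels were 8.81 and 7.03 CPM in haltere nub and 227 and 246 CPM in haltere tsh libraries. Of 9 tested regulators of the leg axis, 4 were higher and 3 lower, shares of 44.4% and 33.3% beside 9.96% and 15% of all genes tested. The lower ones were dac (-4.57 ± 0.16, 2.60 and 2.14 CPM in haltere nub against 55.1 and 57.4 CPM in haltere tsh libraries), ss (-4.37 ± 0.24) and the homeobox gene C15 (-4.36 ± 0.24), which pattern leg segments, and the higher ones included, besides Dll, the homeobox gene al (1.81 ± 0.16) and bab2 (0.89 ± 0.11).

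Hinge regulators split, with 4 of 11 higher and 6 lower in haltere nub cells. The shares were 36.4% and 54.5%, beside 9.96% and 15% of all genes tested. The GATA factor gene grn stood at 43.2 and 45.2 CPM in haltere nub libraries and 751 and 719 CPM in haltere tsh libraries (-4.06 ± 0.11), and Sox15, an HMG box gene of the hinge, was lower by less (-1.35 ± 0.08). The 3 Dorsocross T-box genes, which lie within 39.8 kb on 3L, were low throughout the haltere disc. Levels of Doc1 were 2.50 and 2.17 CPM in haltere nub and 15.9 and 13.7 CPM in haltere tsh libraries, those of Doc2 1.13 and 0.987 CPM in haltere nub and 14.3 and 13.2 CPM in haltere tsh libraries, and those of Doc3 1.70 and 1.88 CPM in haltere nub and 17.8 and 17 CPM in haltere tsh libraries. No replicates overlapped, as in 69% of all genes tested, and the log2 fold changes were -2.66 ± 0.14, -3.69 ± 0.14 and -3.28 ± 0.16. The higher members were rn, the POU factor gene vvl (2.32 ± 0.10), zfh2 (0.53 ± 0.10) and the Pax gene Poxn (2.71 ± 0.76). Poxn lost its call without any 1 of the 4 haltere libraries or either wing nub library (adjusted p of 0.0792 to 0.189), with no filter on low counts, with a floor of 1 CPM and with thinned counts (0.052 to 0.16), and zfh2 without haltere nub replicate 2 or haltere tsh replicate 1 (0.0609 and 0.0521), which left 2 higher members in these last 2 fits.

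Among 7 Hox genes tested, 1 was higher and 2 lower, shares of 14.3% and 28.6% beside 9.96% and 15% of all genes tested. Ubx (3R, 16656623 to 16734426) stood at 2738 and 2753 CPM in haltere nub libraries and 769 and 818 CPM in haltere tsh libraries (1.79 ± 0.27), so both domains of the disc had it. Its replicates did not overlap, as in 69% of all genes tested. The thoracic Hox gene Antp was lower, at 17.3 and 20.3 CPM in haltere nub and 95.4 and 69.9 CPM in haltere tsh libraries (-2.14 ± 0.17), as was lab at low level (0.653 and 0.673 CPM in haltere nub against 3.36 and 5.88 CPM in haltere tsh libraries, -2.80 ± 0.60). The other 4 stayed under 3 CPM in every haltere library and were not called, though the largest log2 fold change among them, at these low levels, was 7.01. The list had 2 higher members by DESeq2 and in a fit of the haltere libraries alone. The call of lab was lost without either haltere nub replicate or haltere tsh replicate 2 (adjusted p of 0.0552 to 0.0612).

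Among signalling genes, the Wnt pathway had 11 of 25 members higher and 5 lower in haltere nub cells, with a median of 0.24. The shares were 44% and 20%, beside 9.96% and 15% of all genes tested. The median was -0.03 with the trend on gene span removed and 0.12 without haltere tsh replicate 1. Of the Wnt ligand genes, 3 lie within 97.1 kb on 2L. Among them, Wnt4 stood at 339 and 335 CPM in haltere nub libraries and 2.90 and 4.57 CPM in haltere tsh libraries. The gene wg, the ligand of the margin of the wing pouch, had 676 and 782 CPM in haltere nub and 78.7 and 97.9 CPM in haltere tsh libraries, and Wnt6 had 181 and 176 CPM in haltere nub and 52.4 and 51.7 CPM in haltere tsh libraries. Both haltere nub libraries were above both haltere tsh libraries for each ligand, with log2 fold changes of 6.48 ± 0.20, 3.04 ± 0.14 and 1.78 ± 0.09. Wnt2, at 14 and 14.3 CPM in haltere nub against 1.65 and 3.25 CPM in haltere tsh libraries, was also higher (2.50 ± 0.20).

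Feedback genes of the Wnt pathway were also among the higher members. These were the secreted Wnt deacylase gene Notum (2.27 ± 0.09, 826 and 897 CPM in haltere nub against 176 and 181 CPM in haltere tsh libraries), the Dishevelled antagonist gene nkd (1.78 ± 0.09) and the receptor gene fz3 (1.19 ± 0.11). The receptor gene fz2, which Wg signalling represses in the wing pouch, was lower, at 547 and 527 CPM in haltere nub and 2434 and 2425 CPM in haltere tsh libraries (-2.18 ± 0.10). Also lower were drl, which encodes a Wnt5 receptor (-0.84 ± 0.09), and arm, which encodes beta-catenin (-0.73 ± 0.09). Without haltere nub replicate 1 or haltere tsh replicate 1 the list had 3 lower members rather than 5.

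Of 21 genes of the Notch pathway and the dorsoventral boundary, 12 were higher and 2 lower, at a median of 0.72. The shares were 57.1% and 9.52%, beside 9.96% and 15% of all genes tested. Of the 12, 9 lie in the E(spl) complex, a run of Notch target genes on 3R (25997621 to 26041008), where 11 genes were tested and the other 2 were not called. E(spl)mgamma-HLH, which encodes a bHLH repressor, stood at 42.4 and 45.2 CPM in haltere nub libraries and 6.32 and 6.74 CPM in haltere tsh libraries. E(spl)m7-HLH had 38.6 and 43.3 CPM in haltere nub and 9.15 and 8.39 CPM in haltere tsh libraries, and E(spl)m8-HLH had 31 and 27.9 CPM in haltere nub and 7.37 and 4.74 CPM in haltere tsh libraries. Their log2 fold changes were 2.74 ± 0.18, 2.22 ± 0.14 and 2.29 ± 0.18, and no replicates overlapped, as in 69% of all genes tested. The Bearded family genes Brd (2.55 ± 0.15) and E(spl)m4-BFM (1.87 ± 0.13), which encode inhibitors of Notch ligand activity, were higher as well. The receptor gene N was higher by little (0.42 ± 0.09), the ligand gene Ser was lower (-0.35 ± 0.09), and so was the ubiquitin ligase gene mib1 (-0.46 ± 0.08). The calls of N and Ser were lost without any 1 of the 4 haltere libraries (adjusted p of 0.0511 to 0.133), that of N also with the trend on gene span removed (0.106) and that of Ser with no filter on low counts (0.0545). In the wing disc 2 of the 21 were called higher and 0 lower, beside 667 higher and 882 lower of all 11198 genes tested. The difference between discs was called for 10 members with higher values in the haltere. It was called for 2 with lower values, Ser (-0.62) and mib1 (-0.58). Among all genes tested these interaction shares were 7.32% higher and 8.1% lower.

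The EGF receptor pathway had 9 of 15 members higher, with the other 6 not called (median 0.44). Its share of 60% higher stood beside 9.96% of all genes tested. The gene kek1, which encodes a transmembrane inhibitor of the receptor, stood at 1139.8 and 1142 CPM in haltere nub libraries and 449.8 and 447 CPM in haltere tsh libraries. The Ets factor gene pnt was at 190.3 and 209 CPM in haltere nub and 85.4 and 79.3 CPM in haltere tsh libraries. The protease gene rho, which releases active ligand, had 53.9 and 55.5 CPM in haltere nub and 26.4 and 21 CPM in haltere tsh libraries. The log2 fold changes of these 3 genes were 1.35 ± 0.08, 1.28 ± 0.09 and 1.21 ± 0.12. The rho paralog ru had 3.49 and 2.48 CPM in haltere nub and 0.0658 and 0.171 CPM in haltere tsh libraries (4.59 ± 0.76). The inhibitor gene aos was higher (0.61 ± 0.10), whereas the receptor gene Egfr (-0.22 ± 0.10) did not pass the test. With the trend on gene span removed Egfr was called lower (-0.42, adjusted p of 0.0119), as it was in the haltere libraries alone (0.0112) and without either wing tsh replicate (0.0207 and 0.0218). The list had 2 lower members in each of these 4 fits.

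Compartment and BMP genes differed less. Of 11 Hedgehog and compartment genes 3 were higher, namely the receptor gene ptc (0.88 ± 0.10), the posterior selector en (0.72 ± 0.13) and the ligand gene hh (0.34 ± 0.09). The anterior factor gene ci (-0.50 ± 0.10) and the coreceptor gene ihog (-0.58 ± 0.10) were lower. The shares were 27.3% higher and 18.2% lower, beside 9.96% and 15% of all genes tested. The call of hh was lost without haltere nub replicate 1 or either haltere tsh replicate (adjusted p of 0.0897 to 0.182), with no filter on low counts (0.0563) and with the trend on gene span removed (0.0905), and that of ci without haltere nub replicate 1 (0.0551). Of 17 genes of the Dpp (BMP) pathway, 4 were higher and 3 lower, shares of 23.5% and 17.6%. The BMP-binding protein gene cv-2 stood at 20.0 and 21.2 CPM in haltere nub libraries and 120.3 and 127 CPM in haltere tsh libraries (-2.58 ± 0.10), while the protease gene tok (1.20 ± 0.09) and the BMP-binding protein gene sog (0.72 ± 0.09) were higher. The ligand gene dpp itself was at 246 and 261 CPM in haltere nub and 218 and 206 CPM in haltere tsh libraries and was not called (0.25 ± 0.09, adjusted p = 0.051). It was called higher with DESeq2 size factors, by DESeq2, with a floor of 1 or 5 CPM, in the haltere libraries alone, with a replicate block (0.0492) and without either wing tsh replicate (adjusted p of 0.00535 to 0.0492 over these 8 fits). The count of 4 higher genes in this list was 8 without either wing tsh replicate and 9 in a fit of the 4 haltere libraries alone, and 7 to 9 with DESeq2, its size factors or a floor of 1 or 5 CPM.

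Ligands of several other pathways were lower in haltere nub cells. These included all 3 cytokine genes of the JAK/STAT pathway. The ligand gene upd1 stood at 2.72 and 3.27 CPM in haltere nub libraries and 60.6 and 55.2 CPM in haltere tsh libraries (-4.27 ± 0.13), with upd3 (-2.72 ± 0.44) and upd2 (-3.16 ± 0.74) at lower levels in the same direction. The call of upd2 was lost without haltere nub replicate 2 (adjusted p of 0.0823). The other 8 members tested, among them the receptor gene dome, were not called. The share of 27.3% lower stood beside 15% of all genes tested. Among 17 genes of FGF, PDGF/VEGF receptor (PVR) and insulin signalling, 11 were lower and 2 higher, with a median of -1.95. These were shares of 64.7% and 11.8%, beside 15% and 9.96% of all genes tested.

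The FGF ligand gene bnl, known for guiding tracheal branches, had 3.48 and 3.46 CPM in haltere nub and 48.1 and 42.1 CPM in haltere tsh libraries, and the FGF ligand gene pyr 7.19 and 8.69 CPM in haltere nub and 94.9 and 80.8 CPM in haltere tsh libraries. For the PVR ligand gene Pvf2 these levels were 13.2 and 15.2 CPM in haltere nub and 116 and 126 CPM in haltere tsh libraries. For ImpL2, which encodes a secreted binding protein of insulin-like peptides, they were 19 and 16.4 CPM in haltere nub and 213 and 213 CPM in haltere tsh libraries. These 4 genes had log2 fold changes of -3.70 ± 0.12, -3.47 ± 0.13, -3.09 ± 0.14 and -3.59 ± 0.29, with no overlap of replicates, as in 69% of all genes tested. The other PVR ligand genes Pvf1 (-2.37 ± 0.17) and Pvf3 (-2.08 ± 0.15) were lower too. The second ligand gene of the FGF receptor Htl, ths, was not called, at 55 and 51.5 CPM in haltere nub and 49.8 and 28.2 CPM in haltere tsh libraries (0.46 ± 0.22). It was called higher without haltere tsh replicate 1 (0.92, adjusted p of 0.000835) and by DESeq2 (0.0449). The 2 higher calls of this list were 0 without haltere nub replicate 2 and 1 without haltere nub replicate 1 or haltere tsh replicate 2, or with the trend on gene span removed.

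**Figure D3:**
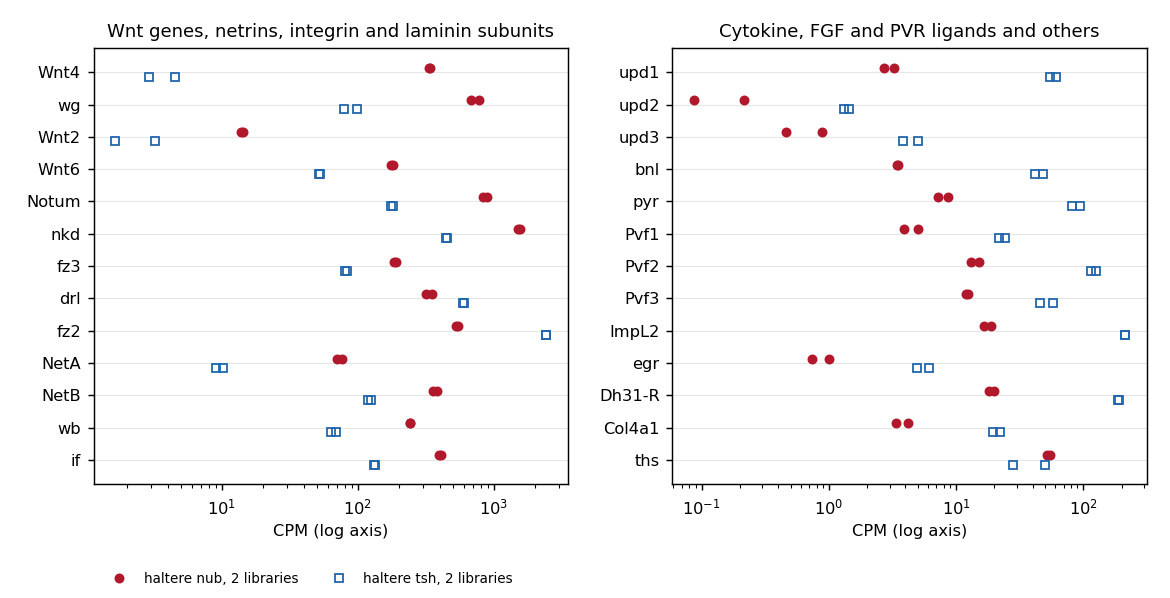
CPM in each haltere library (horizontal log axis) of genes for Wnt signalling and cell attachment (left) and of secreted ligand genes and others (right), with haltere nub libraries as filled circles above haltere tsh libraries as open squares. Wnt4, wg, Wnt2 and Wnt6 have both haltere nub libraries above both haltere tsh libraries, and upd1, bnl, pyr and the 3 Pvf genes have them below.

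Growth control genes of the Fat and Hippo pathways were lower in 7 of 16 cases and higher in 2. The shares were 43.75% and 12.5%, beside 15% and 9.96% of all genes tested. The cadherin gene ds, which encodes the ligand of Fat, stood at 3044 and 3196 CPM in haltere nub libraries and 4779 and 4975 CPM in haltere tsh libraries (-0.64 ± 0.10), and its partner gene ft was not called. The Hippo pathway genes kibra (-1.09 ± 0.09) and ex (-0.60 ± 0.09), which encode upstream activators of the kinase cascade, were lower, as was the caspase inhibitor gene Diap1 (-0.49 ± 0.10). The list had 4 lower members without haltere nub replicate 1 or haltere tsh replicate 1, where Diap1 was among those lost (adjusted p of 0.0545 and 0.0533), and it had 1 higher member without any 1 of the 4 haltere libraries or with the trend on gene span removed. Of 10 planar polarity genes, 1 was higher, and Vang, which encodes a core membrane protein, was lower (-0.51 ± 0.08). The share of 10% each way stood beside 9.96% higher and 15% lower among all genes tested, and the higher count was 0 without any 1 of the 4 haltere libraries or with the trend on gene span removed, and 3 without either wing tsh replicate.

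Of 12 sensory organ genes tested, 7 were higher and 1 lower, shares of 58.3% and 8.33% beside 9.96% and 15% of all genes tested. The proneural bHLH gene sc stood at 70.2 and 86.6 CPM in haltere nub libraries and 34.8 and 33.3 CPM in haltere tsh libraries, and its neighbour ac at 48.4 and 67.8 CPM in haltere nub and 19.8 and 19.8 CPM in haltere tsh libraries. Both were above the tsh level in each nub library, with log2 fold changes of 1.20 ± 0.12 and 1.55 ± 0.16. The precursor gene sens (1.23 ± 0.24) and the adaptor gene phyl (1.63 ± 0.22) were higher at low levels. The 1 lower member, emc, encodes an antagonist of proneural proteins, with 184 and 231 CPM in haltere nub and 537 and 471 CPM in haltere tsh libraries (-1.28 ± 0.13).

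Of 34 tested receptor genes for neuropeptides and amines, 5 were higher and 2 lower, shares of 14.7% and 5.88% beside 9.96% and 15% of all genes tested. The receptor gene CCAP-R, for crustacean cardioactive peptide, stood at 58.1 and 70.9 CPM in haltere nub libraries and 0.790 and 0.114 CPM in haltere tsh libraries. AstC-R2, an allatostatin C receptor gene, had 71 and 83.7 CPM in haltere nub and 0.132 and 0.913 CPM in haltere tsh libraries. Dh31-R, the receptor gene for diuretic hormone 31, went the other way with 19.8 and 18 CPM in haltere nub and 186 and 189.7 CPM in haltere tsh libraries. The log2 fold changes were 7.22 ± 1.08 for CCAP-R, 7.13 ± 0.95 for AstC-R2 and -3.31 ± 0.13 for Dh31-R. CCAP-R was no longer called without either haltere nub replicate (adjusted p of 0.0613 and 0.0783), and the list had 2 or 3 higher members without any 1 of the 4 haltere libraries.

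The guidance ligand genes NetA and NetB, neighbours on the X chromosome that encode netrins, were both higher. NetA had 76.7 and 70.5 CPM in haltere nub and 10.3 and 9.08 CPM in haltere tsh libraries (2.93 ± 0.11), and NetB had 356 and 381 CPM in haltere nub and 126 and 119.5 CPM in haltere tsh libraries (1.59 ± 0.09). Their receptor gene fra was lower (-0.93 ± 0.12). Over the 25 tested guidance genes, 4 were higher and 5 lower, shares of 16% and 20% beside 9.96% and 15% of all genes tested. The count of higher genes was 7 without either wing tsh replicate and 7 to 9 by DESeq2, with a floor of 1 or 5 CPM or in the haltere libraries alone, and that of lower genes 3 without haltere nub replicate 1.

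Of 16 leucine-rich repeat surface genes 7 were higher and 5 lower, shares of 43.75% and 31.25% beside 9.96% and 15% of all genes tested. The neighbouring genes caps and trn, which encode related surface proteins that affect cell affinity, were both higher. Levels of caps were 436 and 448 CPM in haltere nub and 95.3 and 95 CPM in haltere tsh libraries (2.22 ± 0.08), and those of trn 955 and 940.4 CPM in haltere nub and 246 and 255 CPM in haltere tsh libraries (1.92 ± 0.08). Tl, the gene of the founding Toll receptor, was lower (-1.34 ± 0.09). The 5 lower calls fell to 2 without haltere nub replicate 2 and to 3 without any other of the 4 haltere libraries. Among 20 integrin and cadherin genes, 2 were higher and 5 lower, shares of 10% and 25% beside 9.96% and 15% of all genes tested. The integrin alpha PS2 gene if, which acts on the ventral side of the wing pouch, was at 398 and 411 CPM in haltere nub and 131 and 135 CPM in haltere tsh libraries (1.60 ± 0.08), while the beta subunit gene mys was lower (-0.44 ± 0.09). The call of mys was lost without haltere nub replicate 2 (adjusted p of 0.0633), which left 2 of the 5 lower genes, and 3 were left without haltere tsh replicate 2. The 2 higher genes became 1 without either haltere nub replicate or haltere tsh replicate 1 and 4 without either wing tsh replicate.

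Basement membrane genes and proteases acting on the matrix were lower in 6 of 13 cases (46.2%) and higher in 2 (15.4%). Among all genes tested the shares were 15% and 9.96%. The lower count of this list was 4 with thinned haltere nub counts, with no filter on low counts and with a floor of 1 CPM. The collagen IV genes Col4a1 (-2.45 ± 0.26) and vkg (-1.79 ± 0.33) and the protease genes Mmp1 (-0.89 ± 0.12) and Mmp2 (-0.73 ± 0.14) were lower. The laminin alpha gene wb was higher, at 244 and 242 CPM in haltere nub and 63.5 and 68.9 CPM in haltere tsh libraries (1.87 ± 0.08). Of 19 apical matrix genes 10 were higher, among them dpy, which encodes a giant protein that anchors the epithelium to the cuticle (1.0 ± 0.11), and the zona pellucida genes m (3.79 ± 0.23) and mey (1.53 ± 0.11). With 6 lower, the shares were 52.6% and 31.6%, beside 9.96% and 15% of all genes tested. The 6 lower ones included the chitin deacetylase gene verm (-1.45 ± 0.10) and the chitin-binding protein gene obst-A (-1.26 ± 0.10), and 3 of the 6 were called without haltere nub replicate 2 or haltere tsh replicate 1.

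Of 7 aquaporin family genes 3 were higher and 2 lower, shares of 42.9% and 28.6% beside 9.96% and 15% of all genes tested. The glycerol channel family gene Eglp2 stood at 34.9 and 38.9 CPM in haltere nub libraries and 5.33 and 4.0 CPM in haltere tsh libraries (2.99 ± 0.24), and bib was also higher (1.11 ± 0.10). The list had 5 higher members without wing tsh replicate 1 and 1 lower member without haltere tsh replicate 1. Of 125 cuticle protein genes 56 were tested, with 8 higher and 4 lower, shares of 14.3% and 7.14% beside 9.96% and 15% of all genes tested. The higher ones included the neighbours Ccp84Ab (21.8 and 26.7 CPM in haltere nub against 0.0658 and 0.514 CPM in haltere tsh libraries, 6.30 ± 0.52) and Ccp84Aa (2.78 ± 0.52), and also Cpr35B (4.0 ± 0.53). The lower ones included Cpr12A (-3.08 ± 0.16) and Cpr64Aa (-3.81 ± 0.34) besides Cpr49Ac and Cpr65Ec. The count of higher cuticle genes was 14 without wing tsh replicate 1, and that of lower ones 8 without haltere tsh replicate 2. The Osiris family gene Osi14 was higher (4.89 ± 0.40, 62 and 72.4 CPM in haltere nub against 1.98 and 2.51 CPM in haltere tsh libraries), the only one called of 11 tested, with 3 called without either wing tsh replicate. The share of 9.09% of Osiris genes higher was near the 9.96% of all genes tested. Of 811 tested long noncoding RNA genes, 78 (9.62%) were higher and 64 (7.89%) lower, near or under the shares of all genes tested. These counts were 39 to 44 higher without either haltere nub replicate or haltere tsh replicate 1, 120 higher without wing tsh replicate 1, and 42 lower without haltere tsh replicate 1.

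**Figure D4:**
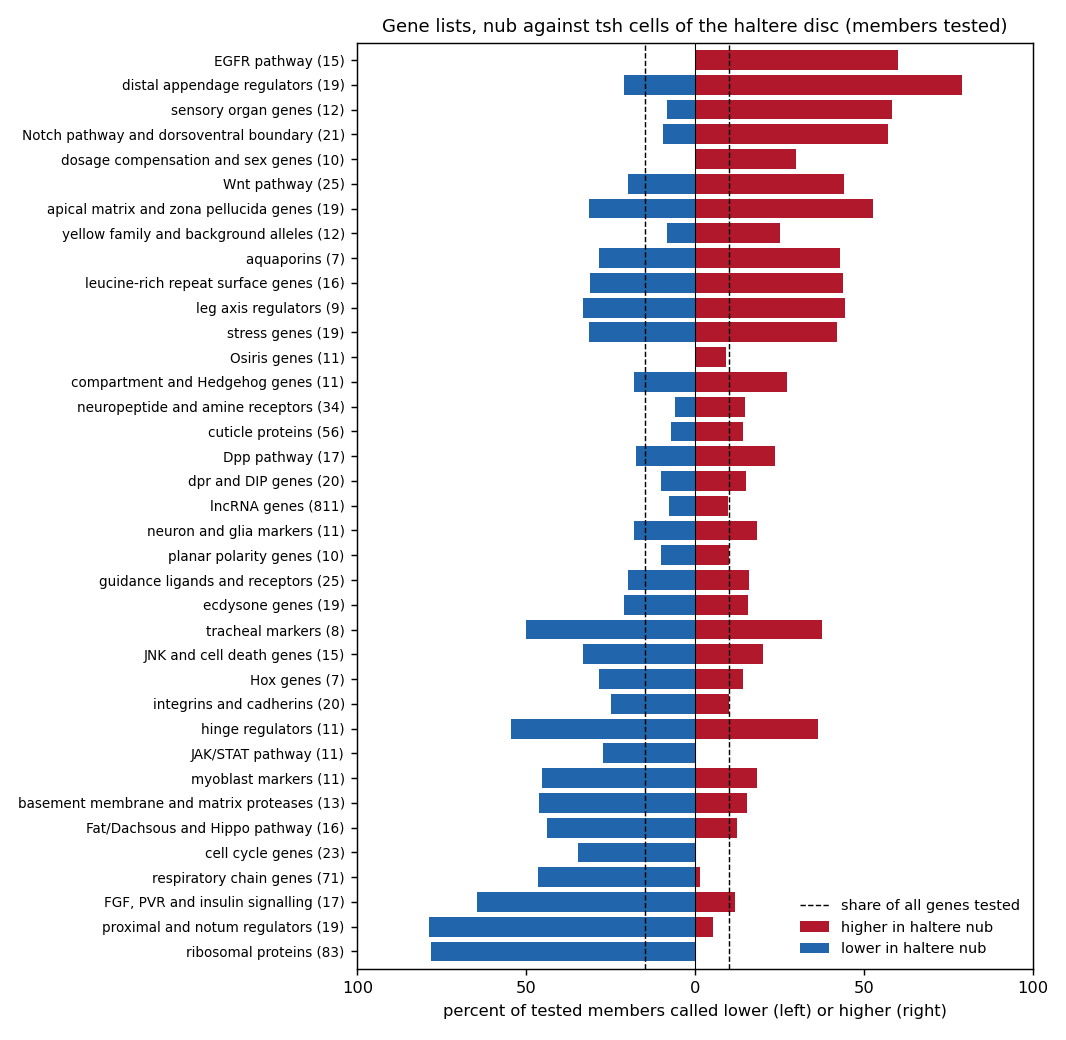
Share of the tested members of each gene list (percent, horizontal axis) called higher in haltere nub cells (bars to the right) or lower (bars to the left), for lists of 7 or more tested members, whose number is in brackets. Dashed lines mark the shares among all genes tested, 9.96% higher and 15% lower. Distal regulators reach the largest share to the right (78.9%), and proximal regulators (78.9%) and ribosomal proteins (78.3%) the largest shares to the left.

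Markers of other cell types moved with some of these groups. Of 11 tested myoblast markers, 5 were lower and 2 higher, shares of 45.5% and 18.2% beside 15% and 9.96% of all genes tested. Their log2 fold changes ran from -2.45 to 2.59. The defining gene twi was at 1.10 and 0.640 CPM in haltere nub and 3.62 and 3.43 CPM in haltere tsh libraries (-2.01 ± 0.36), and the FGF receptor gene htl at 1.42 and 0.738 CPM in haltere nub and 3.95 and 4.40 CPM in haltere tsh libraries (-1.95 ± 0.32). Of the 2 higher markers, kirre was at 113 and 109 CPM in haltere nub and 22.2 and 21.2 CPM in haltere tsh libraries (2.36 ± 0.11). The summed level of the list was 832 and 825 CPM in haltere nub libraries and 655 and 659 CPM in haltere tsh libraries, most of it from members at over 100 CPM in both groups such as rols and mbc. Of 8 tracheal markers 4 were lower and 3 higher, with summed levels of 636 and 726 CPM in haltere nub libraries and 413 and 405 CPM in haltere tsh libraries. The tracheal shares were 50% and 37.5%, beside 15% and 9.96% of all genes tested. The FGF receptor gene btl was lower (2.97 and 3.36 CPM in haltere nub against 16.1 and 18.4 CPM in haltere tsh libraries, -2.45 ± 0.23) and trh, the tracheal master gene, higher (62.7 and 68.8 CPM in haltere nub against 22.7 and 30.9 CPM in haltere tsh libraries, 1.29 ± 0.14).

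None of 6 tested hemocyte markers was called by edgeR's quasi-likelihood test, and 2 had an unadjusted p under 0.05 (2 were called by DESeq2). The summed level of the 9 hemocyte markers in the files was 9.40 and 11.9 CPM in haltere nub libraries and 8.95 and 10.4 CPM in haltere tsh libraries. None of 4 tested fat body markers was called, 0 had an unadjusted p under 0.05 (0 by DESeq2), and the summed level of the 8 in the files was 8.34 and 5.89 CPM in haltere nub libraries and 5.27 and 7.25 CPM in haltere tsh libraries. Of 11 neuron and glia markers 2 were higher and 2 lower, shares of 18.2% each beside 9.96% and 15% of all genes tested. The higher count moved when single libraries were left out. Summed levels of the list were 450.4 and 459 CPM in haltere nub libraries and 503 and 499.9 CPM in haltere tsh libraries. The part of myoblasts and tracheal cells in the lower FGF and PVR genes, bnl, pyr and the Pvf genes among them, was not tested.

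Housekeeping groups shifted by small amounts. Of 83 tested ribosomal protein genes, 65 were lower and the other 18 not called, with a median log2 fold change of -0.50. The gene RpS21 had the smallest adjusted p of them, with 149 and 147 CPM in haltere nub and 339.9 and 311 CPM in haltere tsh libraries (-1.13 ± 0.12). Of 71 respiratory chain genes 33 were lower and 1 higher (median -0.41), and of 23 cell cycle genes 8 were lower and the other 15 not called (median -0.26). The lower shares of these 3 lists were 78.3%, 46.5% and 34.8%, beside 15% of all genes tested. The mitotic phosphatase gene stg, which drives entry into mitosis, had the largest fold change of the 23, at 116 and 127 CPM in haltere nub and 248 and 209.7 CPM in haltere tsh libraries (-0.91 ± 0.10).

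These 3 counts moved with single libraries. Leaving out haltere nub replicate 1, haltere nub replicate 2 or haltere tsh replicate 1 gave 30, 39 and 27 lower ribosomal protein genes, 13, 13 and 15 lower respiratory chain genes (19 without haltere tsh replicate 2), and 2, 3 and 2 lower cell cycle genes. Fold changes varied with gene span over the whole transcriptome, with genes split by span into 3 classes of near equal size. The median log2 fold change was -0.05 in the shortest class, -0.06 in the middle class and 0.09 in the longest. With this trend removed, 60 ribosomal protein, 26 respiratory chain and 5 cell cycle genes were lower. The medians of the 3 lists were negative in every fit that left out 1 library. The depth of the haltere nub libraries also differs between the groups, and its part in these shifts was tested only by thinning, after which 66, 33 and 7 genes of the 3 lists were lower.

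Of 19 stress genes tested, 8 were higher and 6 lower, shares of 42.1% and 31.6% beside 9.96% and 15% of all genes tested. The higher ones were heat shock genes, such as Hsp68 (67.4 and 67.4 CPM in haltere nub against 7.64 and 16.4 CPM in haltere tsh libraries, 2.47 ± 0.29) and 6 copies of Hsp70, whose near-identical sequences make the split between copies uncertain. Other heat shock genes (Hsp23, Hsp27 and Hsp83) were among the lower ones, as were the oxidative stress gene GstD1 (-1.52 ± 0.12) and the DNA damage response gene Gadd45 (49 and 38.7 CPM in haltere nub against 162 and 151 CPM in haltere tsh libraries, -1.83 ± 0.11). In fits without any 1 of the 4 haltere libraries, 2 or 3 of the 6 lower genes were called. Of 15 JNK and cell death genes, 3 were higher and 5 lower, shares of 20% and 33.3% beside 9.96% and 15% of all genes tested, and the higher count was 1 without haltere nub replicate 2 or haltere tsh replicate 1. The TNF ligand gene egr was lower (1.01 and 0.738 CPM in haltere nub against 4.94 and 6.11 CPM in haltere tsh libraries, -2.66 ± 0.33), one of its receptor genes, wgn, higher (172 and 178 CPM in haltere nub against 37.5 and 42.4 CPM in haltere tsh libraries, 2.13 ± 0.09), and the other receptor gene, grnd, was not called.

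Of 19 ecdysone genes, 3 were higher and 4 lower, shares of 15.8% and 21.1% beside 9.96% and 15% of all genes tested. The higher count was 1 without any 1 of the 4 haltere libraries or with the trend on gene span removed. The ecdysone-inducible gene ImpE2 reached 19081 and 17264 CPM in haltere nub and 5904 and 6216 CPM in haltere tsh libraries (1.58 ± 0.14), and the hormone-degrading enzyme gene Cyp18a1 was lower (-2.03 ± 0.22). Of 10 dosage compensation and sex genes 3 (30%) were higher, beside 9.96% of all genes tested. Among these 3 was dsx, which controls sexual differentiation (0.55 ± 0.11). Its call was lost without haltere nub replicate 2 or haltere tsh replicate 1 (adjusted p of 0.0561 and 0.0637), which left 1 higher gene in each of these fits. The count was also 1 with the trend on gene span removed, and 0 with a replicate block as well. By chromosome, the share of genes called higher was 9.06% to 11.4% on the major arms and 19.4% of 93 genes on chromosome 4, and the share called lower was 12.5% to 17.2% on the major arms and 9.68% on chromosome 4.

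Set beside the wing disc, whose libraries are not shared with the haltere comparison, many domain differences were common to both discs. Of the 1115 genes higher in haltere nub cells, 284 were also higher in wing nub cells, 25.5% of the haltere list and 42.6% of the wing list of 667. Of the 1675 lower genes, 481 were lower in both, 28.7% of the haltere list and 54.5% of the wing list of 882. Among all 11198 genes tested, 667 were higher and 882 lower in wing nub cells. In haltere nub cells 9.96% of all genes tested were higher and 15% lower. The disc by domain interaction, which tests the difference between the discs, was called for 1727 of 11198 genes (15.4%), 820 higher (7.32%) and 907 lower (8.1%) in the haltere. In 74 genes nub cells were higher in the haltere and lower in the wing, and in 76 the reverse. All 150 were called in the interaction, but it is the haltere difference minus the wing difference in the same fit. Opposite calls in both discs thus largely fixed this outcome. Without wing tsh replicate 2, which leaves replicate 1 alone in its group, the interaction count was 3400, and it was 803 without wing nub replicate 1 and 695 to 781 without haltere nub replicate 1 or 2 or haltere tsh replicate 1.

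**Figure D5:**
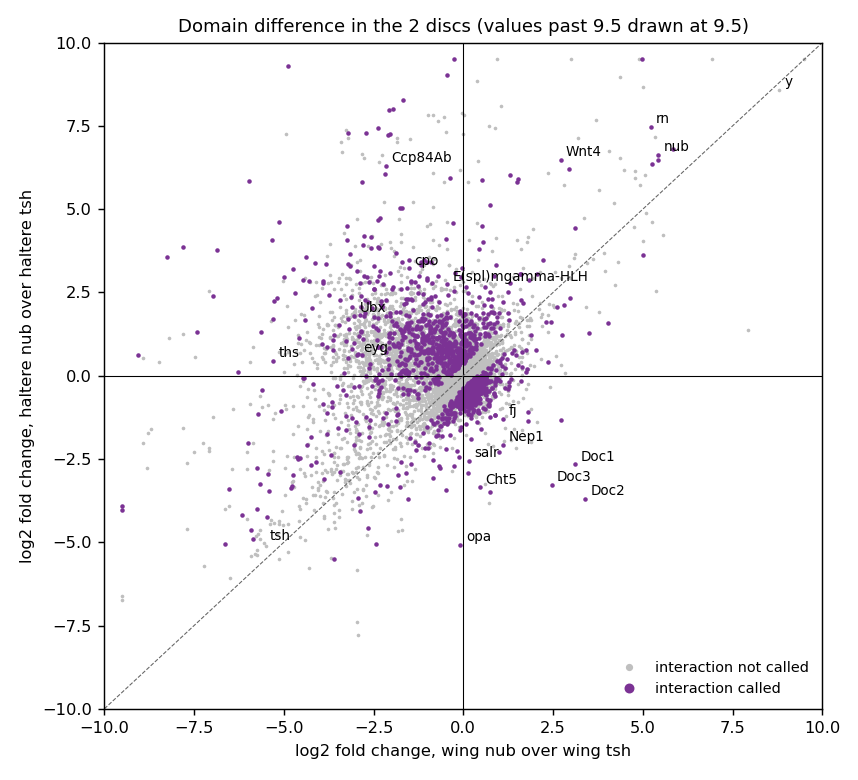
Log2 fold change of nub over tsh cells in the haltere disc (vertical axis) against that in the wing disc (horizontal axis), 1 point per gene tested, with the 1727 genes called in the disc by domain interaction coloured and the dashed line marking equal change. The Dorsocross genes and opa lie low on the vertical axis without being low on the horizontal one, and cpo and Ubx lie in the upper left.

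The genes with the smallest adjusted p of the interaction included several regulators. They were chosen by p and not by size, and larger interaction values were called in other genes, among them the cuticle protein gene Ccp84Ab (8.46 ± 0.74, adjusted p = 0.000125 in edgeR's quasi-likelihood test). Nub cells had lower levels of the Dorsocross genes than tsh cells in the haltere and higher levels in the wing, with interaction log2 values of -5.78 ± 0.20 for Doc1, -7.08 ± 0.19 for Doc2 and -5.74 ± 0.22 for Doc3. For opa the domain difference was -5.08 in the haltere and -0.08 in the wing (-5.0 ± 0.15). The chitinase gene Cht5 stood at 23.5 and 22.2 CPM in haltere nub libraries and 245 and 222 CPM in haltere tsh libraries, and at 78.5 and 79.8 CPM in wing nub and 55.7 and 58.2 CPM in wing tsh libraries (-3.83 ± 0.12). The RNA-binding protein gene cpo went the other way, with 233 and 210.3 CPM in haltere nub and 24.5 and 22.8 CPM in haltere tsh libraries, beside 17.4 and 15.7 CPM in wing nub and 50.1 and 44.2 CPM in wing tsh libraries (4.74 ± 0.15). The peptidase gene Nep1 (-3.18 ± 0.15) and salr (-2.71 ± 0.13) were lower in the haltere difference, and eyg (3.56 ± 0.17) and tinc (2.60 ± 0.12) higher. The gene tinc was at 1264 and 1319 CPM in haltere nub libraries and 209 and 197 CPM in haltere tsh libraries and at 378 and 353 CPM in wing nub and 335 and 362 CPM in wing tsh libraries, a difference of 2.67 in the haltere and 0.07 in the wing.

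Members of the lists above also differed between discs. The FGF ligand gene ths had a domain difference of 0.46 in the haltere and -5.30 in the wing (5.76 ± 0.34), and Wnt4 one of 6.48 and 2.71 (3.77 ± 0.26). The E(spl)mgamma-HLH difference was 2.74 in the haltere and -0.45 in the wing (3.20 ± 0.27), and that of Ubx 1.79 and -3.03 (4.82 ± 0.46). Levels of Ubx in the wing disc were 2.05 and 6.94 CPM in wing nub and 37 and 37.1 CPM in wing tsh libraries. Distal genes Dll (-2.45 ± 0.14) and fj (-2.40 ± 0.14) had lower values in the haltere difference, and rn (2.25 ± 0.21) and nub (1.21 ± 0.13) higher ones. For ribosomal protein genes the wing median was 0.09, and 52 of 83 were lower in the interaction. The interactions of tsh (0.52) and tio (0.44) were not called, and that of tsh was called without wing nub replicate 1 (0.90, adjusted p of 0.0355).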

How the data were processed

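Total RNA of sorted disc cells was made into RNA-seq libraries with the Nugen Ovation Drosophila RNA-seq system, per the labels' protocols. The authors deposited raw counts per FlyBase gene for each library, and per the submitters' processing notes bcl2fastq, HISAT2, Bowtie2, deepTools and dm6 were used in the series, with no role or version stated. The counting tool, its annotation, strand setting and treatment of reads with several matches were not given in the labels or headers read here. ATAC-seq and ChIP-seq samples (17 and 11) were not analysed here.

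Counts of all 8 RNA libraries (17807 gene IDs, 17710 matched to a symbol and 17672 to a position in the RefSeq gene table of the Release 6 assembly, 97 unmatched) were fitted in 1 model with a mean per group in edgeR 4.0.16 under R 4.3.3 (limma 3.58.1). Library sizes were scaled by TMM, filterByExpr kept 11198 genes and left out 6609, and robust quasi-likelihood tests had 4 residual degrees of freedom among libraries (common biological coefficient of variation 19.9%). Log2 fold changes are of haltere nub over haltere tsh, with SE from the fit, and p-values were adjusted by Benjamini-Hochberg over all genes tested, with a threshold of 0.05. The disc by domain interaction was tested in the same model. Where a group had 0 counts, it was given 3 counts as a floor, and ratios on 1 to 3 counts have exact 95% counting intervals, which cover counting error only. The fit was checked on simulated counts in which some genes with a mean of at least 5 CPM were changed in the haltere nub group. It called 21 of 67 genes changed by 0.5 log2, 55 of 67 changed by 1 and 66 of 66 changed by 2. Small changes were thus often missed, and 13 of its 155 calls were false.

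Alternatives were DESeq2 size factors, the DESeq2 1.42.0 Wald test, no filter, floors of 1 and 5 CPM, haltere nub counts thinned to a total of 16333157.5 (seed 20), the haltere libraries alone, a replicate block, removal of a trend on gene span, both together, no robust dispersions, and each library left out. Tables were handled in python 3.11.15 (pandas 2.3.3, numpy 2.4.6, scipy 1.17.1) and figures drawn with matplotlib 3.10.9.

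The libraries and gene lists were chosen with earlier results of these data known. Named genes are the driver genes, Ubx and Antp, the 15 largest fold changes in each direction among called genes with at least 5 CPM and no overlap of replicates, list members by smallest adjusted p, and the 10 interactions of smallest adjusted p among genes with symbols. Other members, chosen after their values were seen, are named for their role in a pathway.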

Additional observations from a re-analysis of the deposited data

Results flagged for a closer look

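The domain difference of nub over tsh cells differed between the haltere and the wing disc by the test of the disc by domain interaction (edgeR's quasi-likelihood test, adjusted p under 0.05) in 19 of the genes named with an interaction value. Values are log2, haltere minus wing. Lower in the haltere were Doc2 (-7.08), Doc1 (-5.78), Doc3 (-5.74), opa (-5.0), Cht5 (-3.83), Nep1 (-3.18), salr (-2.71), Dll (-2.45) and fj (-2.40). Higher in the haltere were Ccp84Ab (8.46), ths (5.76), Ubx (4.82), cpo (4.74), Wnt4 (3.77), eyg (3.56), E(spl)mgamma-HLH (3.20), tinc (2.60), rn (2.25) and nub (1.21). The haltere value and the wing value lay on opposite sides of 0 in the 3 Dorsocross genes, Cht5, Nep1, fj, Ubx, cpo, eyg and Ccp84Ab, with both called. Wing tsh replicate 1, with 5111 genes at 1 to 5 CPM against at most 2315 in the other 7 libraries, enters each of these values through the wing side, and its part in them was not tested beyond leaving it out, which gave 1783 interaction calls in place of 1727.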

How the results depend on the processing

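Of 179 named genes, 155 kept their direction and their side of the threshold under every alternative that gave a value, as did 20 of 21 named interactions. No named gene changed direction. The number of genes called higher was 1778 with the 4 haltere libraries alone, against 1115. Leaving out 1 library at a time gave 1456 to 3737 called genes, 543 to 1686 higher and 897 to 2051 lower, and 695 to 3400 interactions. The smallest counts came without haltere tsh replicate 1 or a haltere nub replicate and the largest without a wing tsh replicate, and the cause was not tested. With a floor of 1 CPM the split was 1554 higher against 1489 lower. The other settings for all 8 libraries gave 2462 to 3043 called genes.

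Whether the replicate numbers pair the samples is not stated in the labels, and so few libraries cannot settle it. Same-numbered haltere nub and haltere tsh libraries deviated with a correlation of 0.04 across 7276 genes, which are not independent, and the other 5 pairs of groups with -0.10 to 0.17. With the replicate number as a block, 2696 genes were called (1085 higher and 1611 lower) and 1562 interactions, and with the trend on gene span also removed, 2462 genes.

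Depth limits the low end on the tsh side, where 59 of the genes called higher had under 10 counts in the haltere tsh libraries together and 19 had 0. With 2 libraries a group, small changes were called or lost with single libraries. Whether a single sequencing run set the haltere nub libraries apart cannot be told from these files.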

Other observations

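Several gene families outside the pathways above held members on both sides. Of 12 tested genes of the yellow family and the background allele w, 3 were higher and 1 lower in haltere nub cells (2 lower without haltere tsh replicate 2 or either wing tsh replicate). The shares were 25% higher and 8.33% lower, beside 9.96% and 15% of all genes tested. The neighbours yellow-e2 and yellow-e3 were higher (1.26 ± 0.12 and 1.42 ± 0.15), with yellow-e2 at 60.7 and 61.2 CPM in haltere nub libraries and 24.8 and 26.2 CPM in haltere tsh libraries. In contrast yellow-b was lower, at 16.2 and 16.6 CPM in haltere nub and 45.4 and 46 CPM in haltere tsh libraries (-1.48 ± 0.10). The other member of y w backgrounds, w, was not called, while y had the difference given above.

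Among genes for the interacting surface proteins of the Dpr and DIP families, 20 of 32 were tested, 3 were higher and 2 lower, shares of 15% and 10% beside 9.96% and 15% of all genes tested. The higher count was 0 without haltere tsh replicate 1 or with the trend on gene span removed, and 1 without any other haltere library or either wing nub library. The lower count was 1 without either haltere nub replicate or haltere tsh replicate 1. The lower pair were dpr16 (-2.01 ± 0.23, 1.53 and 2.40 CPM in haltere nub against 7.37 and 8.39 CPM in haltere tsh libraries) and dpr19 (-2.33 ± 0.51), and DIP-alpha was among the higher ones (0.57 ± 0.12). The call of dpr19 was lost without either haltere nub replicate or haltere tsh replicate 1 (adjusted p of 0.0567 to 0.0616 in edgeR's quasi-likelihood test), and that of DIP-alpha without haltere tsh replicate 1 (0.0754) and with the trend on gene span removed (0.0729). Of the neuron and glia markers, futsch, which encodes a microtubule-associated protein, was higher (0.77 ± 0.10), and the septate junction and blood-brain barrier genes nrv2 (-0.81 ± 0.09) and moody (-0.71 ± 0.11) were lower. The immunoglobulin gene kirre, listed as a myoblast marker, stood at 113 and 109 CPM in haltere nub libraries and 22.2 and 21.2 CPM in haltere tsh libraries (2.36 ± 0.11). The bHLH-PAS gene dysf, listed as a tracheal marker, went the other way, with 3.54 and 2.89 CPM in haltere nub and 85.7 and 105 CPM in haltere tsh libraries (-4.89 ± 0.18). Of early ecdysone response genes, Eip74EF was lower (-0.94 ± 0.11), with 205 and 217 CPM in haltere nub against 413 and 398 CPM in haltere tsh libraries.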
